A study of Phalaenopsis x intermedia with 4 samples.

Results

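Of the 115866 sites in the genotype table of a Phalaenopsis cross, 1517 (1.31%) listed a deletion or insertion sign among their alleles or did not list exactly 2 alleles. They were chosen from the alleles field alone, on chromosomes 1 to 19 and on the further label 20. The remaining 114349 sites were SNPs with 2 base alleles, called 2-allele SNPs here. The plants were the F1 generation of P. Intermedia, which comes from the cross of P. aphrodite (Pa) with P. equestris (Pe), together with both parents. Leaf DNA was cut with HinP1I and HaeIII and sequenced on a MiSeq, or cut with ApeKI and HaeIII and sequenced on a HiSeq, with 2 plates for each enzyme pair and 4 libraries in all. The deposited table merges all libraries into 1 column per plant, so neither the library behind a call nor the read depth is known. It holds 92 plants, namely 90 progeny, Pa and Pe.

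Genotyping-by-sequencing (GBS) reads short stretches beside restriction cut sites in many plants at once. An insertion or deletion (indel) is a length difference between aligned sequences, and 1 such event can leave a gap at several neighbouring positions of an alignment. In a cross between diploid parents a site can carry up to 4 alleles, each parent passes on 1 of its alleles at every site, and a child can hold no allele that is absent from both parents. Many mapping programs take sites with exactly 2 base alleles, so sites of the kinds described here are usually left out of a map or an association scan.

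The sites were of 2 kinds. Multi-base sites, with 3 or 4 base alleles and no indel sign, numbered 1214 (80.03% of the 1517), of which 1177 listed 3 bases and 37 listed 4. Indel sites, with a deletion or insertion sign, numbered 303 (19.97%). Of the indel sites, 2 listed a single base and a deletion, 301 listed 3 or more alleles, and 0 listed an insertion as 1 of exactly 2 alleles. The alleles listed differed from the alleles called at 0 of the 115866 sites.

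The table does not define its letters. They were read by the HapMap convention of TASSEL, in which the letter - is a homozygous deletion and the letter 0 is a heterozygous indel whose alleles are not spelled out, and every heterozygous and indel value at indel sites rests on that reading. At the 303 indel sites 18565 calls were made. Of these 2906 (15.7%) were the letter 0 and 984 (5.30%) were the letter -, while the other 14675 were bases. The table held 0 homozygous insertion calls. Both signs, + and -, were listed at 296 indel sites, and those were the 296 sites with a 0 call. The + sign was thus listed only where the letter 0 was called. Indel calls sat on top of base variation, since 290 indel sites also held 2 bases, 9 held 3 and 1 held 4. The number of plants with 0 or - at an indel site had a lowest value of 1, a median of 11 and a highest value of 33. At 29 sites a single plant carried the indel call. Among the 60 progeny with calls at most sites, an indel call was present at a lowest of 26, a median of 62.5 and a highest of 81 of the 303 sites.

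At the multi-base sites the third allele was seldom present as a single copy. Its frequency among allele copies had a lowest value of 0.543%, a median of 14.7% and a highest value of 32.3%. It reached 5% at 962 of the 1214 sites, and at 35 there was 1 copy. Calls with the third allele were homozygous in 3560 of 18321 cases (19.4%), against 8721 of 31034 (28.1%) for calls with the second allele. Alleles were ranked by their copies in these same calls, so the third is never the more frequent, which bears on this contrast. At 442 multi-base sites (36.4%) no plant was homozygous for the third allele. The pair of most frequent alleles was a transition (A with G, or C with T) at 40.7% of multi-base sites and at 61.7% of the 248 indel sites whose leading pair were bases, against 60.5% of 2-allele SNPs. Among sites with 3 bases, the set without C was the most frequent with 381 sites. The set without G had 337, the set without A had 246 and the set without T had 213.

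On chromosomes 1 to 19 the share of sites that were indel or multi-base lay between 0.867% on chromosome 13 and 1.64% on chromosome 4. Chromosome 1 held the largest number, 267 of 24388 sites, followed by chromosome 2 with 225 of 14027. The label 20, which the table uses beside the 19 chromosomes, had the highest share over all its sites, 28 of 860 sites or 3.26% (95% Wilson interval 2.26 to 4.67). The interval of label 20 did not overlap that of any chromosome. Label 20 was also rich in sites with few missing calls (559 of 860), and among such sites its share was 3.94% (22 of 559), below the 4.55% of chromosome 6 (6 of 132). Of its 28 sites, 27 were multi-base and 1 was an indel site, and 23 lay in a cluster with another of them. Wilson intervals count sites as independent, and linked sites are not, so that these intervals are too narrow.

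**Figure D1:**
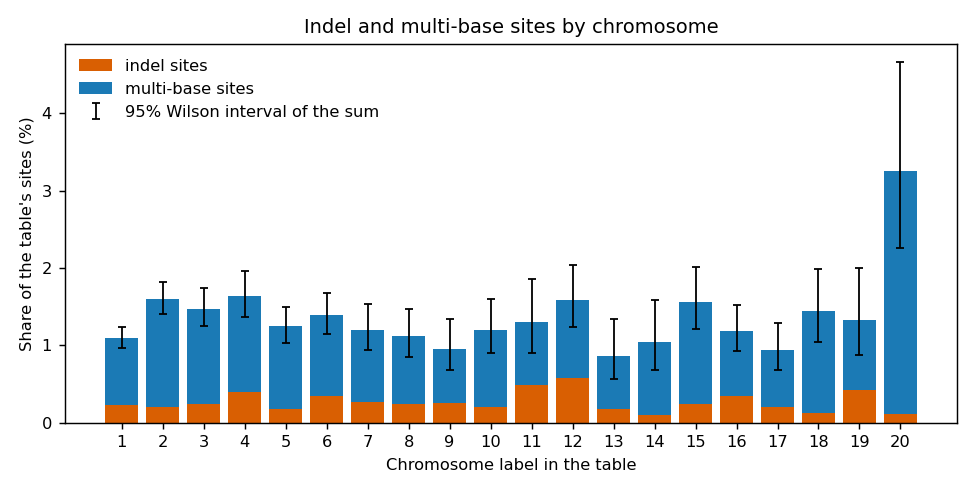
The share of all sites of each chromosome label (bars, in percent) that were indel sites (lower part) or multi-base sites (upper part), with the 95% Wilson interval of the sum. Chromosomes 1 to 19 lie between 0.867% and 1.64%, and label 20 stands at 3.26%.

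Most of these sites were far from the next of their kind, with a median gap of 278424 bp, and most lay among 2-allele SNPs. A cluster was defined as a run of sites with gaps of at most 64 bp, about the length of a GBS tag. Of the 1517 sites, 481 (31.7%) shared a cluster with another indel or multi-base site, against 5850 of the 114349 2-allele SNPs (5.12%) that had such a site in their cluster. Among themselves the sites were sparser than 2-allele SNPs, since 1036 of the 1517 had no other indel or multi-base site in their cluster, and 30.98% lay within 64 bp of another of their kind, against 85.3% of 2-allele SNPs. The share with another indel or multi-base site in the cluster was 52.8% for indel sites (160 of 303) and 26.4% for multi-base sites (321 of 1214). Only 81 of the 1517 sites (5.34%) stood alone in their cluster, against 14.6% of 2-allele SNPs. The median cluster around an indel or multi-base site held 6 sites of any kind, and that around a 2-allele SNP held 3. Directly adjacent positions, 1 bp apart, were both indel or multi-base in 69 cases, and in 26 of these both were indel sites.

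Neighbouring indel sites shared their carriers. There were 92 pairs of consecutive indel sites up to 64 bp apart. Over 5524 calls made at both sites of a pair, the presence or absence of 0 or - was the same in 5417 (98.1%). Of 840 cases with an indel call at either site, 733 (87.3%) had it at both. In 56 of the 92 pairs the indel call was the same in every plant called at both sites. A count of indel sites is thus larger than the number of separate carrier patterns.

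The cluster with the most such sites lay on chromosome 4 at positions 38965287 to 38965342 and held 14 sites, of which 6 were indel and 2 were multi-base. The sources used here name no genome build for these positions. All of its 8 sites had 30 missing progeny calls. At S4_38965324 to S4_38965342 the letter 0 was called in 4 to 7 progeny per site and the letter - in 0. Both parents were homozygous for the common base at S4_38965324, S4_38965337 and S4_38965338, and Pe alone was heterozygous at S4_38965300, S4_38965330 and S4_38965335. Bases varied beside the indel, and at S4_38965324 the progeny had 40 T, 13 Y (C with T), 6 letter 0 and 1 C call. Only 4 plants carried the letter 0 at all 6 indel sites of this cluster.

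The second cluster, on chromosome 3 at positions 45446942 to 45447064, held 25 sites, with 3 indel and 4 multi-base sites among them. Its indel calls were few, with the letter 0 in 1 progeny plant at S3_45446984, 1 at S3_45446989 and 2 at S3_45446993. The multi-base site S3_45446952 (G/A/T) had 37 R (A with G), 19 G and 3 K (G with T) calls. At S3_45447034 (G/C/T) Pa was S (C with G) and Pe was K, and the 58 called progeny had 37 S, 10 G, 10 K and 1 C call. That left 57 of 58 calls within what these parents can give. No progeny plant was homozygous for T at either site.

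The third cluster, on chromosome 6 at positions 16034460 to 16034518, held 12 sites, of which 7 were indel and 0 multi-base sites. The letter - was called in 4 progeny at every one of the 7 sites, and these were the same 4 plants. The letter 0 was called in 5 or 6 progeny per site. In all, 9 plants carried an indel call at all 7 sites. The base calls split the same positions in another way. S6_16034471, S6_16034480 and S6_16034495 each had 36 progeny homozygous for the first base and 6 homozygous for the second, and S6_16034481 and S6_16034483 each had 28 and 4.

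On label 20, 6 directly adjacent positions were all multi-base sites, S20_100390753 to S20_100390758, a group singled out after its values were seen. Between 81 and 82 progeny were called at each. Between 55 and 63 of them were homozygous for the first allele and 17 to 23 were heterozygous. Only 2 to 4 were homozygous for another base. Pe had no call at 3 of the 6 positions, and Pa was called at all of them.

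Pa was heterozygous or 0 in 589 of 1466 calls at indel and multi-base sites (40.2%), against 22.6% at 2-allele SNPs. Pe was heterozygous or 0 in 687 of 1504 calls (45.7%), against 27.2%. The choice of sites bears on these shares, since a 0 call or a further base in a parent can itself place a site in the set. Where both parents were called, 892 of 1457 sites (61.2%) had at least 1 parent heterozygous or 0, and the choice of sites bears on this count too. Of the 107913 2-allele SNPs with both parents called, 1 parent was heterozygous at 25341 and both were at 14155. At indel sites Pa was called 0 at 43 sites and - at 12, and Pe was called 0 at 56 and - at 8. The parents had few missing calls at these sites, 51 in Pa (3.36%) and 13 in Pe (0.857%).

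The parents together often did not hold all the alleles of a site. Of 1165 multi-base sites with both parents called, 284 showed 1 allele in the parents, 644 showed 2, 236 showed 3 and 1 showed 4. At 936 of them (80.3%) the progeny held an allele called in neither parent, against 41.9% of 2-allele SNPs. Alleles of neither parent were found in 20481 of 70364 progeny calls at multi-base sites (29.1%), against 17.4% at 2-allele SNPs. Per progeny plant this share had a lowest value of 8.62%, a median of 28.0% and a highest value of 33.8% at multi-base sites, against 3.17%, 16.7% and 21.04% at 2-allele SNPs. It was higher at multi-base sites in 90 of 90 plants. The choice of sites bears on this count, because a further allele must be held by some plant and a 2-allele SNP offers no further allele once both are in the parents. At the 936 sites a median of 22 progeny carried such an allele (lowest 1, highest 61).

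Missing calls differed little between these sites and the 2-allele SNPs. The median site had 33.7% of the 92 plants missing in both sets. Missing calls divided the plants, since 60 progeny missed 0.835% to 40.1% of 2-allele SNPs and 30 progeny missed 69.0% to 96.1%. They are called well-called and sparsely called progeny here, a division made from the data. Few missing calls (at most 20% of plants) were found at 120 of the 1517 sites (7.91%; 4.62% of indel sites and 8.73% of multi-base sites), against 7.15% of 2-allele SNPs. The sparsely called progeny missed a mean of 18.8% of calls at those 120 sites and 98.6% at the other 1397 (17.4% and 98.0% at 2-allele SNPs). Per plant, the missing share had a lowest value of 0.198%, a median of 3.43% and a highest value of 95.3% at indel and multi-base sites, against 0.835%, 4.84% and 96.1% at 2-allele SNPs. The difference was -0.656 ± 1.62 percentage points (SD, n = 90 plants), with 66 of 90 plants lower (sign-flip permutation test, two-sided, p = 2e-05). With 1 site per cluster the difference was -0.0266 percentage points (same permutation test, p = 0.922), and within the sparsely called progeny it was 0.0187 (p = 0.847). The choice of sites can bear on this difference too, since a further allele is seen only where plants have calls. These p-values measure the spread between these plants of 1 cross and do not separate out that choice. Indel sites had a lower missing share than 2-allele SNPs in 57 of 60 well-called progeny (-1.55 ± 1.02 percentage points) and a higher one in 30 of 30 sparsely called progeny (3.44 ± 1.06).

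Heterozygous calls were more frequent at indel and multi-base sites than at 2-allele SNPs in 90 of 90 progeny. The share of calls that were heterozygous had a lowest value of 22.8%, a median of 42.8% and a highest value of 55.7% at indel and multi-base sites, against 14.2%, 26.1% and 35.1% at 2-allele SNPs. The mean difference was 15.3 ± 4.997 percentage points (SD, n = 90 plants), given with no test. It was 17.4 percentage points in well-called and 11.1 in sparsely called progeny. In sparsely called progeny it was 11.6 ± 6.63 at the 120 sites with few missing calls and 0.595 ± 14.2 at the other 1397, where 14 of 30 plants were higher. Multi-base sites differed from 2-allele SNPs by 16.3 percentage points and indel sites by 10.1. The alleles field that chose the sites is made from these calls, since the letter 0 is itself a heterozygous call and a further base can pair with either of the others. An alternative chosen after seeing the data kept only calls made of the 2 most frequent bases of each site, which leaves out the letters 0 and -. The difference was then 4.33 ± 4.21 percentage points, higher in 78 of 90 plants. It is given with no test, because the sites are still those chosen from these calls.

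**Figure D2:**
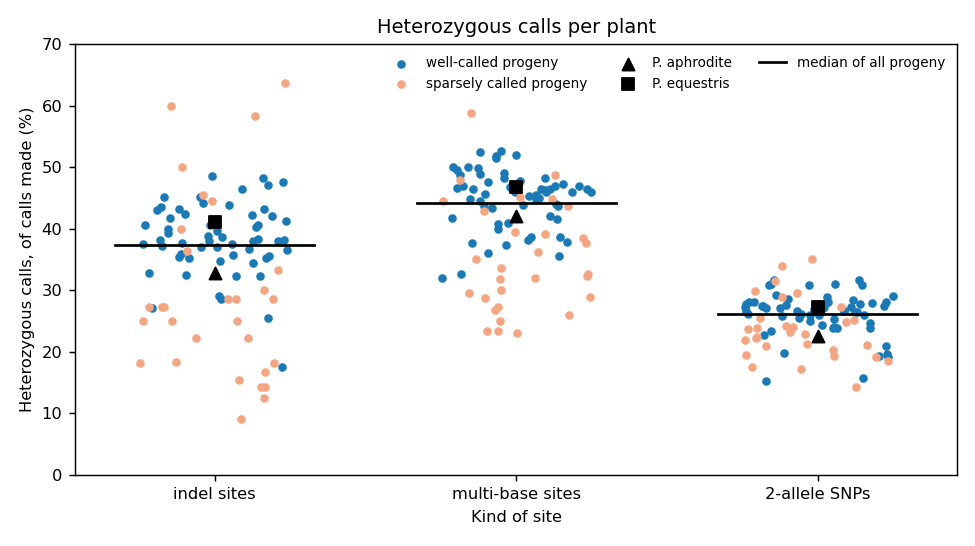
Heterozygous calls (letter 0 included) as a percent of the calls made, for each plant, at indel sites, multi-base sites and 2-allele SNPs. Circles are progeny, darker for well-called and lighter for sparsely called plants, the triangle is Pa, the square is Pe, and the bar is the median of the 90 progeny. At multi-base sites the progeny lie between 23.1% and 58.8%, and at 2-allele SNPs between 14.2% and 35.1%.

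Progeny calls were set against what the parental calls allow. Of the calls at indel and multi-base sites, a lowest of 37.6%, a median of 52.1% and a highest of 58.7% per plant were allowed, against 49.2%, 59.0% and 63.7% at 2-allele SNPs. The mean difference was -7.07 ± 2.89 percentage points (SD, n = 90), lower in 89 of 90 plants. The choice of sites bears on this difference, since a further allele is often in neither parent and a 2-allele SNP allows every call where both parents are heterozygous, so it is given with no test. When only calls of the 2 most frequent bases were kept, the direction turned and 5.28 percentage points more were allowed at indel and multi-base sites (higher in 75 of 90 plants). That setting leaves out parental as well as progeny calls with a further base. A call of 0 was not judged, since its alleles are not known.

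The shares varied with the cross. Where the parents were different homozygotes, every child should be heterozygous, and 1035 of 11443 calls (9.04%) at 192 indel and multi-base sites were the heterozygote of the parental alleles, against 15.5% at 23185 2-allele SNPs. Where both parents were the same homozygote, 52.3% of calls at 373 sites matched them, against 57.6%. Where 1 parent was heterozygous and the other homozygous for a shared allele, 64.4% of calls at 378 sites were allowed, against 81.8%. At 70 indel sites of this cross the share was 76.4%, and at 308 multi-base sites it was 62.0%. With 2 alleles, any call is allowed where both parents are the same heterozygote, so that only the indel and multi-base sites can depart from 100%, and 64.3% of their calls at 192 sites were allowed.

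**Figure D3:**
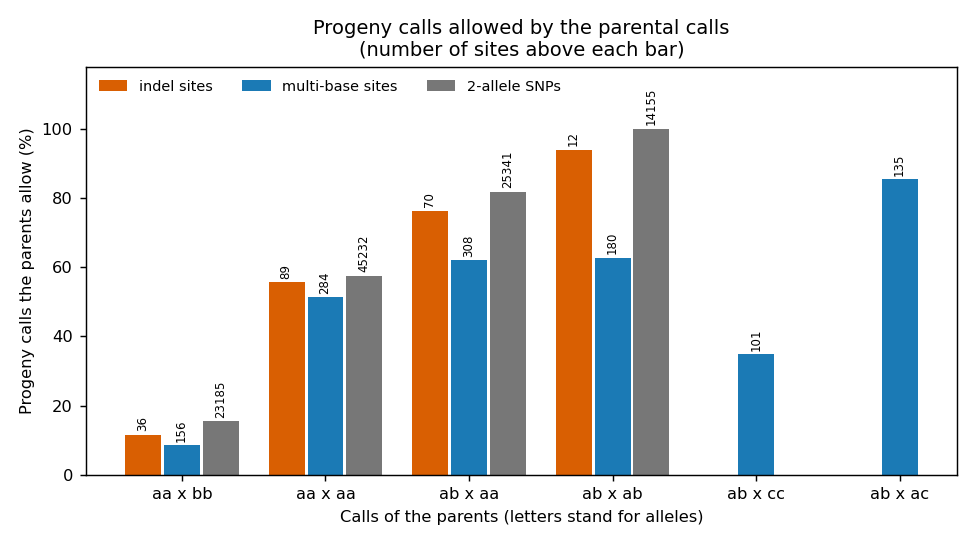
Progeny calls allowed by the parental calls, in percent of calls judged, for 6 kinds of cross and for indel sites, multi-base sites and 2-allele SNPs (bars, with the number of sites above each, and sets under 10 sites left out). Letters on the axis stand for alleles. Different homozygotes have the shortest bar of each set plotted, from 8.57% at multi-base sites to 15.5% at 2-allele SNPs.

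Some crosses can be seen only at sites with 3 alleles. At 104 sites 1 parent was heterozygous and the other homozygous for the third allele, and 34.2% of 7067 calls judged held 1 allele from each parent. At the 55 multi-base sites of this cross where Pa was the homozygote, 60.2% of 3714 progeny calls held its allele, 39.1% as heterozygotes and 21.1% as homozygotes, and 39.8% did not hold it. At the 46 sites where Pe was the homozygote, 53.6% of 3207 calls held its allele, 30.2% as heterozygotes and 23.4% as homozygotes. A homozygous parent passes its allele to every child, so that calls without it departed from the parental calls. At 136 sites both parents were heterozygous and shared 1 allele, and there 85.5% of 8316 calls were allowed.

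Indel calls in the progeny were most frequent where both parents had them. Where both parents had 0 or - (23 sites), 562 of 1364 progeny calls (41.2%) had 0 or -. Where Pa alone had it (32 sites) the share was 23.3%, and where Pe alone had it (41 sites) it was 28.9%. Where neither parent had it (196 sites, the largest group) 1985 of 11733 progeny calls (16.9%) did. The choice of sites bears on this share, because an indel site without 0 or - in the parents must have it in some progeny plant. The sites of this last group had a lowest share of 1.11%, a median of 13.5% and a highest share of 49.2%. The ranges over sites of the 4 groups overlapped.

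**Figure D4:**
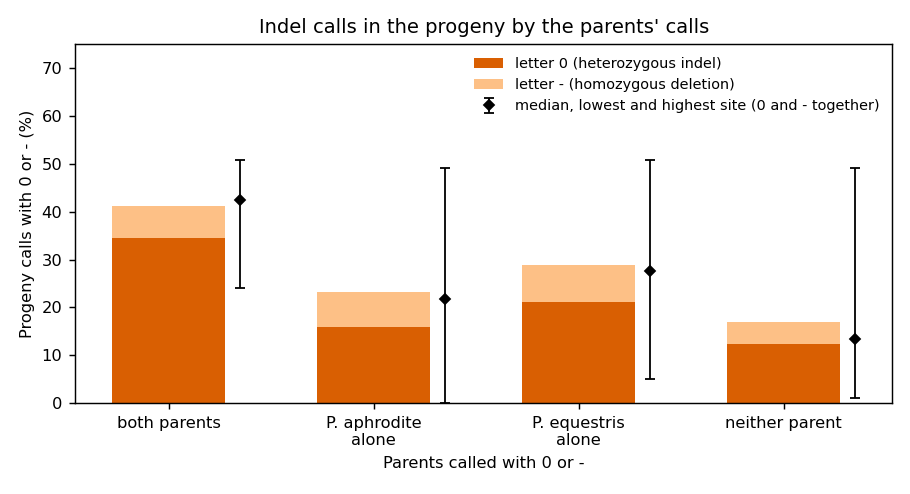
Progeny calls with the letter 0 (lower part) or the letter - (upper part), in percent of progeny calls at the indel sites of each group, by which parents were themselves called 0 or -. Diamonds and lines give the median, lowest and highest site for both letters together. The share is 41.2% with both parents, 23.3% and 28.9% with Pa or Pe alone, and 16.9% with neither.

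Where 1 parent is heterozygous and the other homozygous for a shared allele, heterozygotes and homozygotes should be equal in number in the progeny. This 1:1 ratio was tested with an exact two-sided binomial test at every site with at least 20 progeny in these classes, with p-values adjusted over all 25098 sites by the Benjamini-Hochberg method. Of 336 indel and multi-base sites tested, 189 (56.3%) departed from 1:1 at an adjusted p under 0.05, where the share over all sites tested was 52.5%. It was 31 of 64 indel sites (48.4%) and 158 of 272 multi-base sites (58.1%), and 52.5% of 2-allele SNPs. Heterozygotes were too few at 137 of the 336 sites, where 38.5% of all sites tested were called in this direction, and too many at 52. Among 24762 2-allele SNPs they were too few at 9534 and too many at 3464. The median indel or multi-base site had 36.7% heterozygotes in these classes (lowest 0%, highest 100%), against 39.7% at 2-allele SNPs. The median was 31.03% where Pa was the heterozygous parent (140 sites), against 38.2% at 2-allele SNPs. It was 42.1% where Pe was (196 sites), against 40.7%. A further 32.7% of the progeny calls at these 336 sites fell in neither class, against 17.0% at 2-allele SNPs. The choice of sites bears on this difference, because calls with a further base or an indel letter fall in neither class. At a 2-allele SNP only the other homozygote can.

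The indel and multi-base sites with the fewest missing calls show the calls plant by plant. At S1_20219596 on chromosome 1 (position 20219596, A/G/T) Pa was A and Pe was R, and the 90 progeny had 65 A, 17 R and 8 W (A with T) calls. The exact binomial test of 65 against 17 gave an adjusted p of 6.3e-07. All 8 W calls held a T that was called in neither parent. At S1_20219634, 38 bp further on, both parents were A, and 69 progeny were A, 18 were R and 3 were W. Of the 90 calls there, 21 thus held an allele of neither parent.

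On chromosome 2, S2_78180236 (G/C/+/-) had Pa as S and Pe as G, with 57 G, 32 S and 1 letter 0 call in the progeny. The exact binomial test gave an adjusted p of 0.0222 there. S2_78180254 (G/T/A), 18 bp further on, had Pe as K, and 51 progeny were K, 31 were G and 8 were R, with an adjusted p of 0.0644 by the same exact test. S2_114442515 (T/C/+/-) had Pe as Y and gave 44 T, 42 Y and 4 letter 0 calls (exact test, adjusted p = 0.965). Heterozygotes were fewer than homozygotes at S2_78180236 and more numerous at S2_78180254, and at S2_114442515 the classes were nearly equal. None of these 3 sites was associated with its nearest 2-allele SNP, with adjusted p of Fisher's exact test from 0.285 to 0.794 within 64 bp and from 0.877 to 1 at 1 to 50 kb.

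Linkage to nearby SNPs was measured by setting the presence of any allele but the first at a site against the same at its nearest 2-allele SNP, over progeny called at both, with Fisher's exact test adjusted over all sites. With a partner within 64 bp, 764 of 1394 indel and multi-base sites (54.8%) had an adjusted p under 0.05, where the share over all sites was 70.1%. It was 59.4% of 281 indel sites and 53.6% of 1113 multi-base sites, against 70.4% of 2-allele SNPs. The squared correlation r2 of carriers had a median of 0.119, against 1 for 2-allele SNPs. It was exactly 1 for 79 sites (5.67%), against 50.3% of 2-allele SNPs. These r2 values are a description over a median of 58 plants per pair, and neighbours within 64 bp often lie on the same read.

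With a partner 1 to 50 kb away, 241 of 1320 sites (18.3%) were associated, where the share over all sites was 25.8%. Indel sites had 69 of 263 (26.2%) and multi-base sites 172 of 1057 (16.3%), against 25.9% of 2-allele SNPs. The median r2 was 0.0185, against 0.0252 for 2-allele SNPs. The measure pools all further alleles of a site into 1 carrier state. An alternative chosen after seeing the data kept only calls of the 2 most frequent bases. The median r2 was then 0.0285, above that of 2-allele SNPs, and 18.4% of 1286 sites were associated. Within 64 bp that alternative gave a median r2 of 0.0892, against 1. With all calls, an r2 of at least 0.5 at 1 to 50 kb was found for 51 sites (3.86%; 8.37% of indel sites and 2.74% of multi-base sites), against 14.6% of 2-allele SNPs. Missing calls moved with these shares, and with few missing calls at 1 of the pair alone, 2 of 125 sites (1.6%) were associated, against 2.49% of 2-allele SNPs. With few missing calls at both, 4 of 32 were (12.5%), against 23.7%. Their part in the result was not tested.

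**Figure D5:**
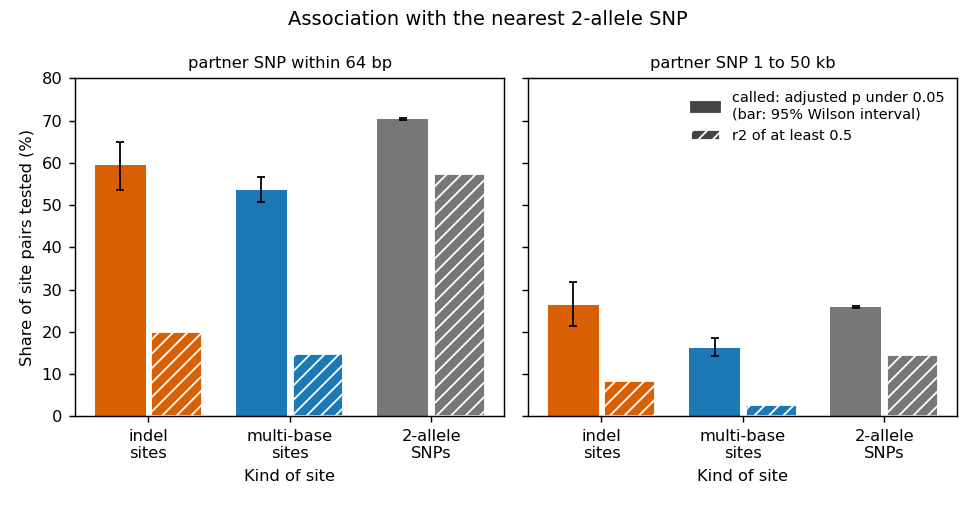
The share of sites associated with their nearest 2-allele SNP (plain bars, adjusted p of Fisher's exact test under 0.05, with 95% Wilson intervals) and the share with r2 of at least 0.5 (hatched bars), for a partner within 64 bp and for a partner 1 to 50 kb away. At 1 to 50 kb the plain bars stand at 26.2% for indel sites, 16.3% for multi-base sites and 25.9% for 2-allele SNPs.

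Both deletions with 2 alleles had homozygous calls only, which their type fixes, since a 0 call would have listed the + sign as well. At S13_5608671 (G/-), on chromosome 13 at position 5608671, 21 progeny were - and 37 were G, and both parents were G. At S17_3478282 (C/-), on chromosome 17 at position 3478282, 25 progeny were - and 31 were C, and both parents were -. At both sites the progeny thus held an allele of neither parent. Each matched a 2-allele SNP of the same cluster without exception (r2 = 1), S13_5608661 at 10 bp over 58 plants and S17_3478270 at 12 bp over 56 plants. These SNPs had 0 heterozygous progeny calls as well. At longer distance r2 was 0.652 with an SNP 11462 bp from S13_5608671 (Fisher's exact test, adjusted p = 8.85e-10) and 0.806 with an SNP 4248 bp from S17_3478282 (adjusted p = 1.71e-11).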

How the data were processed

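Leaf DNA of the F1 plants and both parents was genotyped with 4 multiplexed GBS libraries. The authors called genotypes with the TASSEL-GBS pipeline and Bowtie 2, left at default settings, and the values they deposited are genotype letters, 1 per site and plant, with no scale of measurement and no read depth. Per the authors' label for the table, missing calls had been imputed from nearest neighbours and rare alleles filtered, and which calls were imputed is not marked. The sources used here do not give the reference build.

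Shares per plant were compared between the chosen sites and the 2-allele SNPs. The missing share had a two-sided sign-flip permutation test over progeny (100000 resamples), though the choice of sites can bear on it. The heterozygous and allowed shares were given with no test, because the choice of sites bears on them. Calls were allowed where 1 allele can come from each parent. Exact binomial and Fisher's exact tests needed at least 20 plants and were adjusted by the Benjamini-Hochberg method over all sites. The steps were tested on simulated data. Sites were named by a rule: 2 of each type with the fewest missing progeny calls, 3 largest clusters, and the 3 sites tested for 1:1 with the fewest missing calls. The sites and the tests were chosen with earlier results of these data known. Alternatives concerned missing calls, plants, label 20, allele frequency, clusters and the letters 0 and -. No genome was used, so no sequence is shown. Computations ran in Python 3.11.15 with pandas 2.3.3, scipy 1.17.1 and numpy 2.4.6.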

Additional observations from a re-analysis of the deposited data

How the results depend on the processing

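Of 52 alternatives over 9 results, 43 kept the direction and the side of the threshold or stayed within a set range of the value in the report. That range was wide. For the heterozygous and allowed shares the side of the threshold came from a sign-flip permutation test. That test is not relied on, because the choice of sites bears on those shares. The 43 include the fall of the heterozygous difference from 15.3 to 4.33 percentage points. They also include 45.7% of sites associated within 64 bp with the 2 most frequent bases only, against 54.8%. With at least 40 plants, 65.8% departed from 1:1, against 56.3%. The lower missing share at indel and multi-base sites was lost at sites missing in no more than 20% of plants (-0.331 percentage points, sign-flip permutation p = 0.434) and with 1 site per cluster (-0.0266), and it turned in sparsely called progeny (0.0187). The share of allowed calls turned with the 2 most frequent bases only (5.28 percentage points, against -7.07), an alternative chosen after seeing the data that by construction leaves out calls with a further base. At those sites with few missing calls, 87.5% of 16 sites departed from 1:1 (75.7% of 2-allele SNPs) and 4.76% of 84 sites were associated with an SNP 1 to 50 kb away (9.36% of 2-allele SNPs), and 120 sites remained in all. Adjusted over all sites instead, 12 of those 16 departed from 1:1 (75%), close to the 73.8% of 3161 2-allele SNPs with few missing calls. Testing the 2 most frequent classes at every site whatever the parents gave 29.5% departing from 1:1, below the 42.5% of 2-allele SNPs, whereas with the cross known 56.3% lay above their 52.5%. A cluster distance of 200 bp put 33.7% of the sites in clusters of 2 or more of their kind, against 30.98% at 64 bp. The heterozygous difference stayed positive under every alternative run, between 4.33 (2 most frequent bases only) and 18.4 percentage points (1 site per cluster). The causes were not tested. No paired analysis was possible because the plate numbers belong to libraries that are merged into 1 column per plant. The tests over plants set both kinds of site against each other within each plant. With no read depth, heterozygotes called as homozygotes cannot be told apart from true homozygotes.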
